A study of Mus musculus with 6 samples.

Results

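Heme and iron handling was followed through 10 genes: Hmox1 and Blvrb for heme breakdown, Slc48a1 for heme transport, Fth1 and Ftl1 for iron storage, Slc40a1 for iron export, Tfrc for iron import, Slc11a1 for phagosomal metal transport, Lcn2 for siderophore binding and Ireb2 for the sensing of iron. They were chosen by symbol for what they do in the pathway. All 10 were found among the 16906 genes of the deposited table, and all 10 passed the filter on low counts that left 12892 genes for testing. The cells were bone-marrow-derived macrophages of wild-type C57BL/6 mice, grown for 7 days in 10% serum and 10 ng/ml of the growth factor M-CSF. Every culture then received exosomes, small vesicles shed by cells, at 100 µg/ml for 12 h. In 3 libraries, called stretched 1 to 3 here, the exosomes came from epithelial cells under cyclic stretch for 6 h. In the other 3, called static 1 to 3, they came from epithelial cells that were not stretched. No group without exosomes is compared, and where the epithelial cells came from, species included, is not stated. The labels do not tell whether replicates are separate cultures, so the p-values below speak to the spread of these libraries alone, which may be technical.

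Macrophages recycle the iron of the body. Heme taken up with aged red cells leaves the phagolysosome through a heme transporter and is cleaved by heme oxygenase to biliverdin, carbon monoxide and iron. The freed iron is stored in ferritin or leaves the cell through ferroportin, while transferrin-bound iron enters through the transferrin receptor. Iron regulatory proteins bind hairpins called iron-responsive elements when iron is low. A hairpin in the leader of an mRNA then blocks its translation, and hairpins in the tail of the transferrin receptor mRNA protect it from decay, so this switch acts partly on protein and not on mRNA level.

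The hairpins of the members are printed because they set apart the genes that this switch can reach. A search of GENCODE transcripts (GRCm38) looked for a C, 5 bases, the loop CAGTGN with a last base other than G, and 5 bases that pair with the first 5, G-T pairs allowed. Of the 10 genes, 4 held a match. Each line gives 30 bases in the sense of the mRNA, with the 6 bases of the loop in capitals.
Fth1, 5′ UTR, chr19:9982731-9982760, plus strand: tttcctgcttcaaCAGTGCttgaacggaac
Ftl1, 5′ UTR, chr7:45459779-45459808, minus strand: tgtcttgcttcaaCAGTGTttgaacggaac
Slc40a1, 5′ UTR, chr1:45925465-45925494, minus strand: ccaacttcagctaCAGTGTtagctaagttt
Tfrc, 3′ UTR, chr16:32631218-32631247, plus strand: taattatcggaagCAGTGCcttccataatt
Tfrc, 3′ UTR, chr16:32631597-32631626, plus strand: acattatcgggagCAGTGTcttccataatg
Tfrc, 3′ UTR, chr16:32631662-32631691, plus strand: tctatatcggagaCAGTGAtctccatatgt
Tfrc, 3′ UTR, chr16:32631709-32631738, plus strand: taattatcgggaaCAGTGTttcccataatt

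The pattern occurred in the 5′ UTR of 23 of 20580 genes (0.112%) and in the 3′ UTR of 100 of 20978 genes (0.477%). Both ferritin genes and the exporter gene Slc40a1 carried 1 match at the 5′ end, and Tfrc carried 4 at the 3′ end. The matches of Fth1 and Ftl1 lay 93 and 84 bases into 5′ UTRs of 224 and 253 bases, and that of Slc40a1 lay 96 bases into 319. No match was found in the UTRs of Hmox1, Blvrb, Slc48a1, Slc11a1, Lcn2 or Ireb2, which says only that these letters are not there. RefSeq promoters (GRCm38.p6, from 250 bases before to 50 after the start) were at hand for Blvrb, Fth1, Ftl1, Ireb2, Lcn2, Slc11a1 and Tfrc. The motif TGACNNNGC, the core of the antioxidant response element, was found on neither strand in any of their 10 promoters and in 12.4% of all 32851 promoters. At that share, a count of 0 in 10 promoters tells little. Bases farther from the start were not searched, so these genes may carry the element there. Promoters of Hmox1, Slc48a1 and Slc40a1 were not analysed here.

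Libraries held 16984561 to 17625991 estimated counts. Static 3 stood apart: it lay at -55.12 on the second principal component (26.2% of the variance) and the other libraries between -13.24 and 18.38. It correlated at 0.950 and 0.954 with static 1 and static 2, which correlated with each other at 0.991 (log2 values across genes). With stretched 1 to 3 static 3 correlated at 0.950, 0.937 and 0.954. On the first component (52.1% of the variance) static 3 lay at 14.55, between the other static libraries (49.17 and 44.05) and the stretched ones (-49.98 to -28.51). Markers of neutrophils without Lcn2, 16 genes in all, summed to 4322, 5871 and 13996 counts scaled by TMM-corrected library sizes (CPM) in static 1 to 3 and to 4730, 5513 and 8795 in stretched 1 to 3. The 10 macrophage markers summed to between 18406 and 29435 CPM in every library, most of it Lyz2 (10307 to 21027 CPM). Of these markers, 5 had a positive and 5 a negative log2 fold change. Mertk was called higher (0.81, adjusted p = 0.0479, edgeR). Mertk, Cd68 and Fcgr1 were higher without overlap, and Adgre1 was lower without overlap (-0.64, adjusted p = 0.120, edgeR). Of 10 marker lists, those of epithelial and dendritic cells had sums that did not overlap between the groups. The 8 measured epithelial markers summed to 38.9, 34.2 and 19.97 CPM in stretched 1 to 3, against 10.5, 14.2 and 14.2 CPM in static 1 to 3, most of it Epcam, which was called higher (1.43, adjusted p = 0.0440, edgeR). Krt8, Sftpb and Nkx2-1 were at most 0.46 CPM. The 6 dendritic markers summed to 32.7, 48.5 and 26.4 CPM against 10.2, 14.5 and 26.1 CPM, and Ccr7 was called higher (1.84, adjusted p = 0.0313). Of these 6, 3 had a positive and 3 a negative log2 fold change, and 1 was higher without overlap. The 6 stromal markers all had a positive log2 fold change, with overlapping sums. These were 5966, 4707 and 6739 CPM in stretched 1 to 3 and 3942, 3587 and 4879 CPM in static 1 to 3. Of the stromal markers edgeR called 0 and DESeq2 called 2. All 5 markers of mast cells and basophils were also positive, with overlapping sums and 0 called. The part of epithelial, dendritic or stromal cells, mast cells or basophils in the levels of Hmox1, Lcn2, Cp, Heph or the other genes was not tested. Levels are CPM, means are given ± SD over 3 libraries, and a call is an adjusted p under 0.05 in edgeR's quasi-likelihood test over all tested genes. In RNA of whole cultures, fewer cells of a type and less RNA per cell cannot be told apart.

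With exosomes of stretched cells, heme oxygenase and lipocalin mRNA rose and ferroportin mRNA fell. The 3 genes called among the 10 were Hmox1 and Lcn2, which were higher, and Slc40a1, which was lower. Among all tested genes 6.55% were called higher and 5.38% lower. The direction was higher in 8 of the 10 and lower in Slc40a1 and Tfrc. The groups did not overlap for 8 of the 10, with stretched higher in 6 and lower in 2. Groups did not overlap for 18.5% of all tested genes with stretched higher and for 18.2% with stretched lower. Static 3 was the lowest static library for 7 of the 10, and stretched 2 was the highest stretched library for 8. The latter depends on the scaling. Stretched 2 had the lowest TMM factor (0.846, against 0.961 and 1.005 in stretched 1 and 3), which raises its CPM. In the length-normalised values given further below, it was the highest stretched library only for Hmox1 and Slc11a1.

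**Figure D1:**
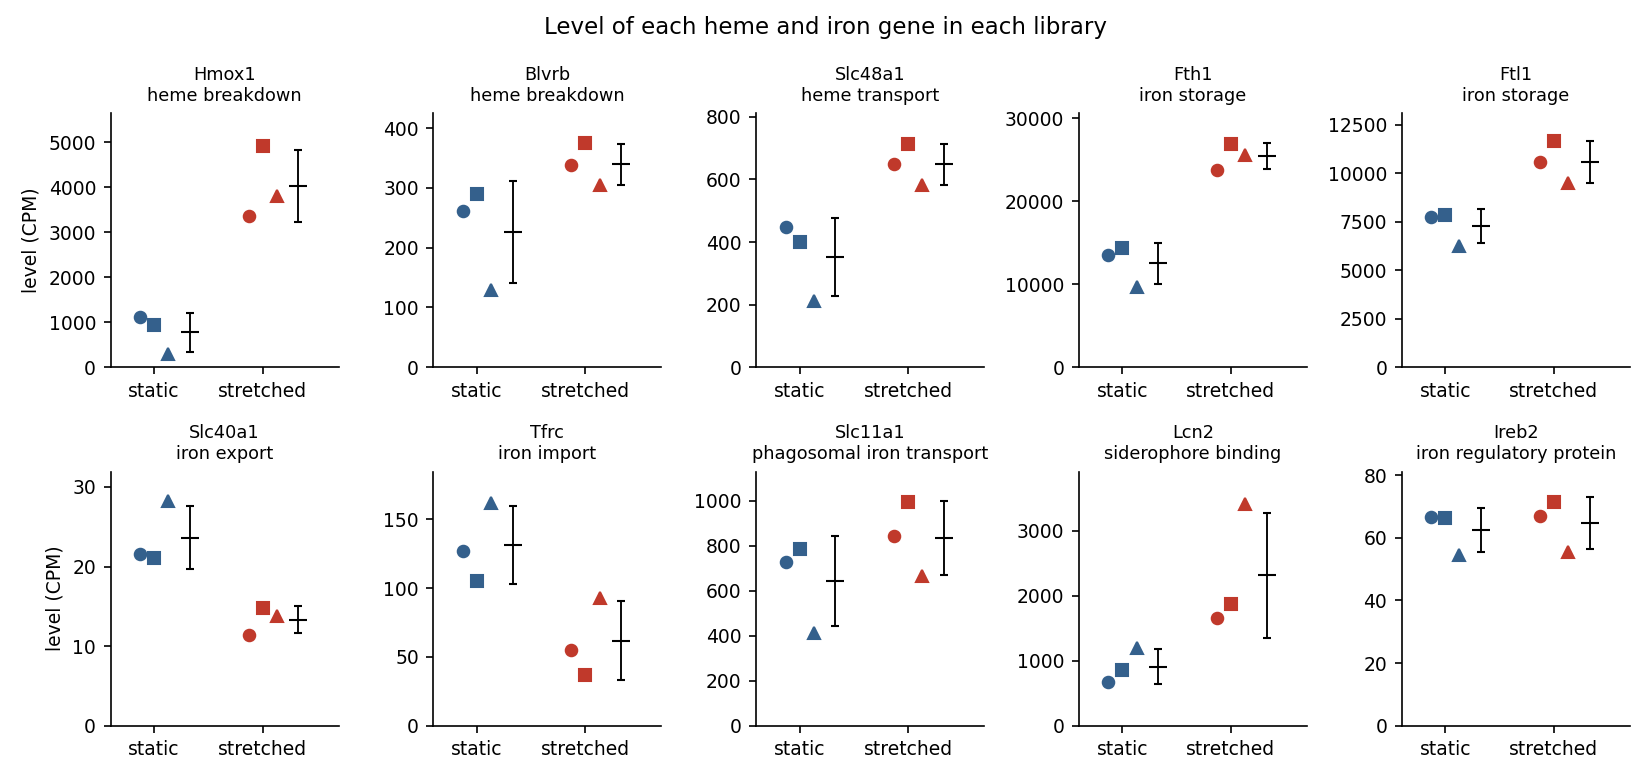
Level of each of the 10 genes in CPM (vertical axis, from 0) in the static (blue) and stretched (red) libraries, with circle, square and triangle for replicates 1, 2 and 3 and a black bar for the mean ± SD. Hmox1 lies between 3360 and 4902 CPM in the stretched libraries and between 286 and 1105 in the static ones, while the groups of Slc11a1 and Ireb2 overlap.

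These counts depended on the libraries. In edgeR fits, 0 of the 10 were called without stretched 1, stretched 2, static 1 or static 2, although 6, 6, 6 and 7 had an unadjusted p under 0.05 there, as did 24.5%, 22.1%, 22.0% and 21.8% of all genes. Over all genes these fits called 133 higher and 28 lower, 33 and 3, 64 and 24, and 0 and 0. Without stretched 3, Tfrc alone was called, beside 556 genes higher and 258 lower in all. Without static 3, Hmox1, Slc48a1, Fth1 and Lcn2 were called higher and Slc40a1 lower, where 16.1% and 15.4% of all genes were called higher and lower. DESeq2 with all libraries called 5 higher and 2 lower, against 10.8% and 9.96% of all genes. With 1 library left out it called 3 to 5 higher and 1 or 2 lower. Over all genes those DESeq2 fits called 725 to 2364 higher and 485 to 2137 lower, of 13017 to 13099 tested. With the replicate number as a block, edgeR called 2 higher and 2 lower, against 5.86% and 3.16% of all genes.

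**Figure D2:**
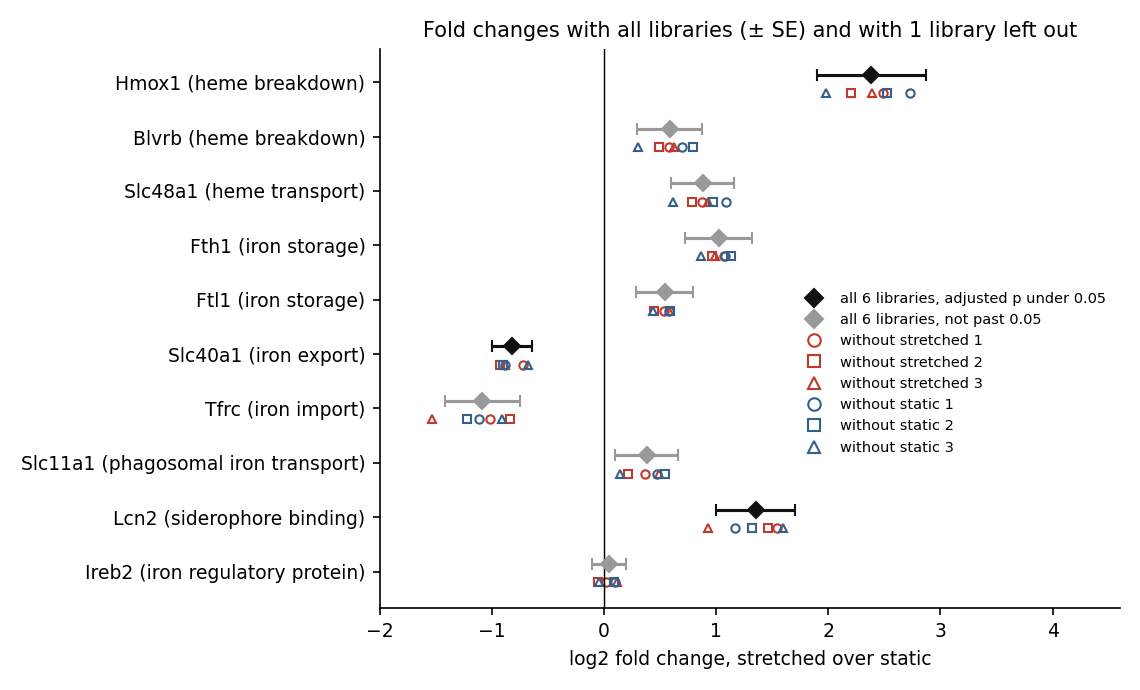
Log2 fold change of stretched over static for each gene with all 6 libraries (diamond, ± SE; black where called, grey otherwise) and after dropping each library (open marks). Hmox1 stays between 1.98 and 2.73 and Slc40a1 between -0.93 and -0.68, and Ireb2 crosses 0.

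Hmox1 (gene identifier 15368, chromosome 8, 75093618 to 75100593) encodes heme oxygenase 1, the inducible enzyme that opens the heme ring. It stood at 3360, 4902 and 3812 CPM in stretched 1 to 3 and at 1105, 927 and 286 CPM in static 1 to 3. Every stretched library was above every static one, and static 3 was far below the other static libraries. The mean rose from 773 ± 431 to 4025 ± 793 CPM, 5.21-fold, or 2.38 ± 0.49 as log2 fold change and SE (adjusted p = 0.0282, edgeR). Without static 3 the change was 1.98 (adjusted p = 0.00404). The call was lost without any 1 of the other libraries, where edgeR's adjusted p ran from 0.0564 without stretched 3 to 0.106 without stretched 2, and the change from 2.20 to 2.73. Over every alternative the adjusted p lay between 8.08e-18 and 0.106. By estimated count Hmox1 ranked 20, 18 and 18 among all genes in stretched 1 to 3, against ranks of 86, 118 and 520 in static 1 to 3.

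Blvrb (gene identifier 233016, chromosome 7, 27447978 to 27465981) encodes biliverdin reductase B. Its levels were 338, 374 and 305 CPM in stretched 1 to 3 and 261, 289.5 and 129 CPM in static 1 to 3. The stretched libraries were higher without overlap, by a margin set by static 2, and static 3 was the lowest. Means of 339 ± 34.5 and 226 ± 85.7 CPM gave a log2 fold change of 0.58 ± 0.29 (adjusted p = 0.212, edgeR), and the change was 0.30 without static 3. Blvrb was not called in any alternative.

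Slc48a1 (gene identifier 67739, chromosome 15, 97784365 to 97792692) encodes HRG1, which carries heme out of the phagolysosome. It was at 651, 712 and 581 CPM in stretched 1 to 3 and at 447, 399 and 211 CPM in static 1 to 3, with no overlap. Means of 648 ± 65.6 and 352 ± 125 CPM gave a log2 fold change of 0.88 ± 0.28, which was not called (adjusted p = 0.0813, edgeR). It was called without static 3 (0.61, adjusted p = 0.0295) and by DESeq2 (adjusted p = 0.0181).

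The ratios between the heme genes differed between the groups. Within each library, the log2 ratio of Hmox1 to Blvrb was 3.31, 3.71 and 3.64 in stretched 1 to 3, against 2.08, 1.68 and 1.15 in static 1 to 3. The ratio of Hmox1 to Slc48a1 was 2.37, 2.78 and 2.71 against 1.31, 1.21 and 0.44 on the same scale. Both ratios were higher in every stretched library, by 1.92 and 1.64. The exact two-sided permutation p was 0.1 for each, the smallest that 3 against 3 libraries can give (0.125 adjusted over the 5 ratios tested).

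**Figure D3:**
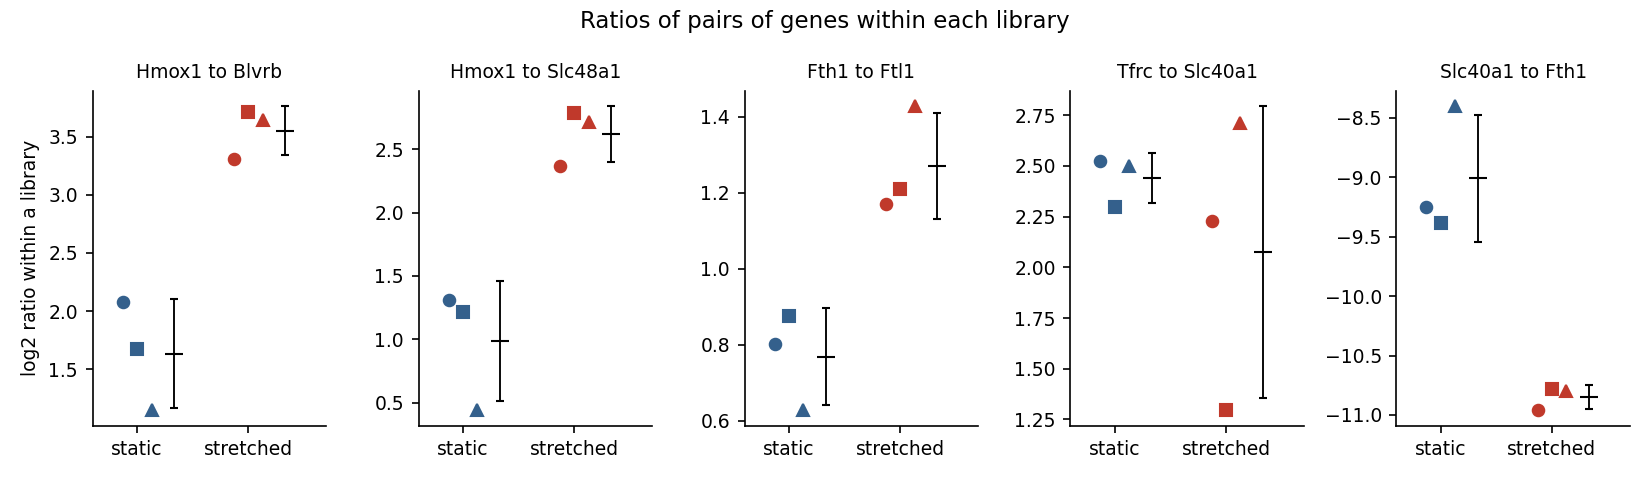
Log2 ratio of 5 pairs of genes within each library (vertical axis; pseudocount 0.5 CPM) in static (blue) and stretched (red) libraries, with the mean ± SD in black. The groups overlap only for the ratio of Tfrc to Slc40a1.

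Ferritin mRNA was among the most abundant of the cells. Fth1 (gene identifier 14319, chromosome 19, 9980600 to 9985111), the heavy chain that oxidises iron for storage, held 2.29%, 2.27% and 2.57% of all counts in stretched 1 to 3, against 1.43%, 1.49% and 1.07% in static 1 to 3. It was the most abundant gene in every stretched library and in static 2, and ranked 2 and 3 in static 1 and static 3. Its levels were 23799.9 CPM in stretched 1, 26918 in stretched 2 and 25539 in stretched 3, and 13463, 14367 and 9686 CPM in static 1 to 3. The lowest stretched library was well above the highest static one. Means of 25419 ± 1562 and 12506 ± 2483 CPM differed 2.03-fold, a log2 fold change of 1.02 ± 0.30 that was not called (adjusted p = 0.0643, edgeR). Without static 3 it was called (0.86, adjusted p = 0.0481), and DESeq2 called it with all libraries (adjusted p = 1.14e-05).

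Ftl1 (gene identifier 14325, chromosome 7, 45457944 to 45459886) encodes the light chain, which helps the iron core form. Its levels were 10566, 11642 and 9485 CPM in stretched 1 to 3 and 7717, 7827 and 6272 CPM in static 1 to 3, again without overlap. Means of 10564 ± 1078 and 7272 ± 868 CPM gave a log2 fold change of 0.54 ± 0.25 (adjusted p = 0.187, edgeR; 0.0128 in DESeq2). Near-identical copies of ferritin genes exist in the genome, and how reads shared between copies were counted is not stated, so the levels of Ftl1 and Fth1 are uncertain in that respect. Per length, Fth1 was 2.33, 2.39 and 2.79 times Ftl1 in stretched 1 to 3 and 1.81, 1.90 and 1.60 times Ftl1 in static 1 to 3. The log2 ratio on the CPM scale was 0.50 higher in the stretched group, with no overlap (exact permutation p = 0.1, the smallest possible; adjusted over 5 ratios 0.125).

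Slc40a1 (gene identifier 53945, chromosome 1, 45908070 to 45926532) encodes ferroportin, the exporter of iron from cells. It was scarce, at 11.4, 14.8 and 13.8 CPM in stretched 1 to 3 and 21.6, 21.1 and 28.2 CPM in static 1 to 3, or 190 to 530 estimated counts. Every stretched library was below every static one, and static 3 was the highest of all. Mean levels were 13.3 ± 1.72 CPM in the stretched group and 23.6 ± 3.98 CPM in the static group, 1.77 times as high. The log2 fold change was -0.82 ± 0.18 (adjusted p = 0.0320, edgeR). The call held without static 3 (-0.68, adjusted p = 0.0172) and was lost without any 1 of the other libraries, where the change ran from -0.93 to -0.73 and the adjusted p from 0.0630 without stretched 3 to 0.103 without stretched 1. Over every alternative the adjusted p lay between 0.00220 and 0.103. The log2 ratio of Slc40a1 to Fth1 was 1.84 lower in the stretched group, with a mean of -10.85 ± 0.10 against -9.01 ± 0.53 and no overlap (exact permutation p = 0.1, adjusted over 5 ratios 0.125). It restates the separation of each gene. Slc40a1 was lower and Fth1 higher in every stretched library, so this ratio could not overlap and its p could only be the smallest possible.

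Tfrc (gene identifier 22042, chromosome 16, 32608896 to 32632794) encodes the transferrin receptor, which brings transferrin-bound iron into the cell. It was at 55.4, 37.0 and 93.1 CPM in stretched 1 to 3 and at 127, 105 and 162 CPM in static 1 to 3. Every stretched library was below every static one, and the number 3 library was the highest of each group. Means of 61.8 ± 28.6 and 131 ± 28.3 CPM differed 2.12-fold, a log2 fold change of -1.09 ± 0.33 that was not called (adjusted p = 0.0708, edgeR). With the replicate number as a block it was called, at -1.17 (adjusted p = 0.0302), as it was without stretched 3 (-1.54, adjusted p = 0.0352) and by DESeq2 (adjusted p = 0.0120). The log2 ratio of Tfrc to Slc40a1 averaged 2.08 ± 0.72 in stretched and 2.44 ± 0.12 in static libraries. The groups overlapped, and the exact two-sided permutation p was 0.6 (also 0.6 adjusted over 5 ratios). Without stretched 2 the difference of that ratio changed from -0.36 to 0.028.

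Lcn2 (gene identifier 16819, chromosome 2, 32384637 to 32387739) encodes lipocalin 2, a secreted protein that binds bacterial siderophores and is stored in neutrophil granules. It was at 1659, 1871 and 3421 CPM in stretched 1 to 3 and at 665, 865 and 1193 CPM in static 1 to 3. Every stretched library was above every static one, and the number 3 library was the highest of each group. The mean rose from 908 ± 266 to 2317 ± 962 CPM, 2.55-fold, a log2 fold change of 1.35 ± 0.35 (adjusted p = 0.0485, edgeR). Scaled by library size alone it was 1.18 and was not called (adjusted p = 0.0673). Without static 3 it was 1.60 (adjusted p = 0.0187). Without any 1 of the other libraries the call was lost, with changes from 0.93 to 1.54 and adjusted p from 0.0826 without stretched 1 to 0.157 without static 1, within a range of 1.67e-05 to 0.157 over every alternative.

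The summed neutrophil markers were also highest in the number 3 library of each group. They stood at 13996 CPM in static 3 and 8795 CPM in stretched 3, where Lcn2 was at 1193 and 3421 CPM. Of the 16 markers, edgeR and DESeq2 each called 0, and 2 had an unadjusted p under 0.05 in edgeR. Ngp, a neutrophil granule gene, was at 1691, 2266 and 2718 CPM in stretched 1 to 3 and at 1272, 2178 and 5665 CPM in static 1 to 3. The granule gene Ltf, which encodes the iron-binding lactoferrin, was at 371, 498 and 576 CPM in stretched 1 to 3 and at 432, 655 and 1956 CPM in static 1 to 3. The groups of both genes overlapped. Over the whole list 3 markers had a positive and 13 a negative log2 fold change, and 2, Mpo and Retnlg, did not overlap, with stretched lower. The positive ones were Ctsg (0.52), Elane (0.23) and S100a8 (0.08). Without static 3 the direction was positive in 10 of the 16, and Ctsg was called higher (1.03, adjusted p = 0.00398, edgeR). The part of neutrophil RNA in the level of Lcn2 was not tested.

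Slc11a1 (gene identifier 18173, chromosome 1, 74375014 to 74386057) encodes NRAMP1, a metal transporter of the phagosome membrane, of which C57BL/6 mice carry a loss-of-function allele. It was at 845, 992 and 666 CPM in stretched 1 to 3 and at 727, 785 and 412 CPM in static 1 to 3. The groups overlapped, and the number 3 library was the lowest of each. Means of 834 ± 164 and 642 ± 201 CPM gave a log2 fold change of 0.38 ± 0.28 (adjusted p = 0.392, edgeR), and 0.14 without static 3.

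Ireb2 (gene identifier 64602, chromosome 9, 54862658 to 54912534) encodes iron regulatory protein 2, one of the proteins that bind the hairpins printed above and one controlled by protein decay. It was at 66.9, 71.4 and 55.4 CPM in stretched 1 to 3 and at 66.6, 66.4 and 54.4 CPM in static 1 to 3. The groups overlapped almost entirely, with the number 3 library lowest in each. Means of 64.6 ± 8.28 and 62.5 ± 7.02 CPM gave a log2 fold change of 0.05 ± 0.15 (adjusted p = 0.865, edgeR), and its sign changed with library size alone (-0.15) and without static 3 (-0.047) or stretched 2 (-0.052).

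Per length, in the FPKM values of the authors, the order of the genes by group mean was the same in both groups. Fth1 led with 13387 to 18945 FPKM in static and 28769 to 32263 in stretched libraries, followed by Ftl1 with 8375 to 10030 and 11575 to 12338. Lcn2, Hmox1, Blvrb, Slc11a1 and Slc48a1 came next, at static means of 1383, 574, 336, 307 and 158 FPKM. Tfrc, Ireb2 and Slc40a1 were lowest, at static means of 29.6, 12.5 and 7.85 FPKM. In static libraries the ranges of Hmox1 and Blvrb overlapped, as did those of Blvrb and Slc11a1. In stretched libraries the ranges of Lcn2 and Hmox1 overlapped, as did those of Tfrc and Ireb2. There the order differed between libraries. Hmox1 was at 2259.65, 2907.8 and 2679.25 FPKM in stretched 1 to 3, and Lcn2 at 2258.26, 2253.76 and 4866.14. Ireb2 was at 12.13, 11.37 and 10.65 FPKM, and Tfrc at 11.17, 6.57 and 19.62. In every static library Lcn2 was above Hmox1 and Tfrc above Ireb2.

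**Figure D4:**
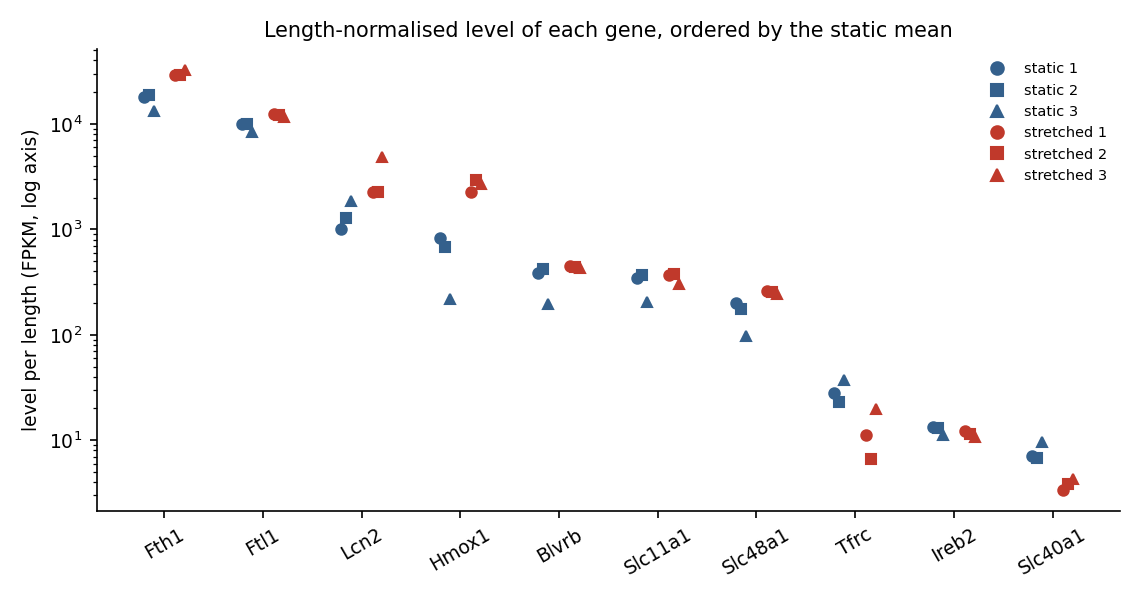
FPKM of each gene (vertical log axis) in static (blue) and stretched (red) libraries, ordered by the static mean. The lowest value of Fth1 or Ftl1 in any library is 8375 FPKM, and the highest of Slc40a1 is 9.64 FPKM.

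Hmox1, Slc48a1, Fth1, Ftl1 and Lcn2 each had 1 transcript in the deposited table, and 1 transcript held 99.8% or more of Blvrb in each library and 99.1% or more of Tfrc. Slc11a1 was split over a pair of main transcripts with 52.0% to 63.8% and 36.2% to 48.0% of its counts. Of 13 member transcripts tested, edgeR called 0, and 7 had an unadjusted p under 0.05, as did 15.4% of all transcripts. DESeq2 called 4 higher and 1 lower, where 4.69% and 4.55% of all transcripts were called higher and lower. Over all 29604 transcripts edgeR called 1 higher (0.00338%) and 0 lower. The Hmox1 transcript had a log2 fold change of 2.36 (adjusted p = 0.122, edgeR).

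How alike the members were across the 6 libraries is described here by Pearson's r of log2 CPM, with no test because the libraries share the contrast. Hmox1 correlated at 0.99 with Fth1, 0.98 with Slc48a1 and 0.97 with Ftl1, and at -0.93 with Slc40a1. Lcn2 followed them less, at 0.64 with Hmox1 and 0.32 with Blvrb. Slc11a1 correlated at 0.96 with Blvrb and 0.87 with Ireb2. Blvrb correlated as highly with Slc48a1 (0.96) and at 0.91 with Hmox1, and Tfrc at -0.95 with Ftl1. Among 10205 other genes with a mean of at least 5 CPM, the most alike were Slirp and Tmem26 for Hmox1 (0.997 and 0.995), Arl1 and Serpinb6b for Blvrb (both 0.994), Hax1 and Il3ra for Slc48a1 (0.994 and 0.990), and Inhba and Tmem26 for Fth1 (0.999 and 0.998). Adgb and Fam129b were most like Ftl1 (0.999 and 0.998), Ccdc12 and Pdlim5 most like Slc40a1 (both 0.989), and Zfp111 and Ankrd40 most like Tfrc (0.992 and 0.991). Srp54b and Jak3 were most like Slc11a1 (0.998 and 0.993), Cib1 and Rab24 most like Lcn2 (0.995 and 0.994), and Tmed5 most like Ireb2 (0.992). Between 47 (Ireb2) and 238 (Ftl1) genes correlated above 0.95 with a member, so such likeness is common over so few libraries.

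Around the 10 members, 68 other genes of heme and iron handling were listed in 6 groups, of which 63 were in the table and 59 tested. Of these, 7 were called higher and 0 lower in edgeR (11.9% of all genes were called in either direction), with a median log2 fold change of 0.12 against -0.002 for all genes. At an unadjusted p under 0.05 there were 21, where 31.7% of all tested genes were under 0.05. Group medians ran from -0.29 for the iron regulatory protein system to 0.44 for iron import, and the library size scaling put them at -0.48 and 0.24. DESeq2 called 9 higher and 3 lower (Uros, Slc39a8 and Lyrm4), and library size alone gave 5 and 3 (Blvra, Pcbp2 and Cul1). Of all genes, DESeq2 called 10.8% higher and 9.96% lower, and library size alone called 556 higher and 1297 lower of 12892. With 1 library left out, edgeR called 1, 0 and 4 higher without stretched 1 to 3, and 0, 0 and 15 without static 1 to 3. It called 1 lower without stretched 3 and 7 lower without static 3. Over all genes these fits called 133, 33 and 556 higher without stretched 1 to 3, and 64, 0 and 2095 without static 1 to 3. Called lower were 28, 3 and 258, and 24, 0 and 2011. Without static 3 that is 16.1% of all genes higher and 15.4% lower. Fbxl5 was the gene called without stretched 1, and Alas1, Cp, Fbxl5 and Slc25a37 were those without stretched 3. All 7 were called without static 3.

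Of 8 tested genes of heme synthesis, 1 was called. Alas1, the rate-limiting enzyme of heme synthesis outside red cells, was at 773, 909 and 376 CPM in stretched 1 to 3 and at 270, 318 and 256 CPM in static 1 to 3. The groups did not overlap, and the log2 fold change was 1.29 ± 0.32 (adjusted p = 0.0432, edgeR; 0.0525 in limma). Uros, the synthase of uroporphyrinogen III, had a value of -1.08 (adjusted p = 0.0598, edgeR). Alas2, the erythroid form, was at most 0.06 CPM in every library and untested. Of 4 tested erythroid markers 0 were called by edgeR or DESeq2, with 0 at an unadjusted p under 0.05, and the list of 12 measured markers summed to 18.1 to 42.4 CPM in stretched and 16.9 to 55.1 CPM in static libraries. Most of that sum was the hemoglobin gene Hba-a1, at 20.9, 14.2 and 35.3 CPM in stretched 1 to 3 and 11.6, 12.5 and 46.5 CPM in static 1 to 3, while Klf1, Slc4a1 and Rhag were at most 0.16 CPM. The part of erythroid RNA in the level of Alas1 was not tested.

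Of 15 tested genes of heme transport, sensing and breakdown, 1 was called. Flvcr1, described as a heme exporter of the plasma membrane, rose from static values of 39.6, 40.6 and 29.5 CPM to 55.9, 56.6 and 65.4 CPM, by 0.70 ± 0.16 on the log2 scale (adjusted p = 0.0378, edgeR; 0.0676 with the replicate block). Nfe2l2 and Bach1, the activator and the repressor of Hmox1 transcription, had values of 0.25 and -0.26 (adjusted p = 0.629 and 0.448, edgeR). Over the libraries left out, Nfe2l2 ran from 0.012 without stretched 2 to 0.58 without static 3, and Bach1 from -0.43 without static 1 to 0.018 without static 3. Hmox2, the constitutive heme oxygenase, was at 0.31 and Blvra, the other biliverdin reductase, at -0.43 (adjusted p = 0.196 and 0.0859, edgeR). The groups overlapped for neither gene, with stretched higher for Hmox2 and lower for Blvra.

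Iron import, reduction and endosomal release counted 1 call among 9 tested genes. Mcoln1, a cation channel of late endosomes and lysosomes that passes iron, was at 59.3, 55.3 and 52.8 CPM in stretched 1 to 3 and at 33.3, 38.3 and 40.2 CPM in static 1 to 3. Its log2 fold change was 0.58 ± 0.13 (adjusted p = 0.0343, edgeR; 0.0642 with the replicate block). Slc22a17, a receptor for lipocalin 2, was at 3.19, 2.72 and 5.64 CPM against 1.55, 1.26 and 1.97 CPM, a value of 1.27 that was not called (adjusted p = 0.0604, edgeR) but passed once the replicate number was a block (adjusted p = 0.0476).

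Among partners of ferritin turnover and iron export, the multicopper ferroxidase genes Cp and Heph were higher, and the exporter gene Slc40a1 was lower. Cp, which encodes ceruloplasmin, was at 299, 308 and 222 CPM in stretched 1 to 3 and at 108, 161 and 143 CPM in static 1 to 3, a log2 fold change of 1.01 ± 0.20 (adjusted p = 0.0279, edgeR). Heph, which encodes hephaestin, was at 6.56, 7.01 and 8.0 CPM against 2.77, 3.44 and 3.51 CPM, a change of 1.15 ± 0.21 (adjusted p = 0.0236). They were the 2 calls among 6 tested genes, and neither group overlapped. Ncoa4, the receptor that delivers ferritin to the lysosome, had a value of 0.68 (adjusted p = 0.0750, edgeR). Hamp, which encodes hepcidin, the hormone that sends ferroportin to degradation, was untested with 21 counts over the stretched and 2 over the static libraries. The ratio of its normalised totals was 10.5, with an exact 95% interval of 2.58 to 92.8 that covers counting error only. With no filter on low counts edgeR called Hamp higher, at 3.36 (adjusted p = 0.0435), a value that at so few counts depends on the prior count.

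In the iron regulatory protein system, 1 of 5 tested genes was called. Fbxl5, an iron-sensing ubiquitin ligase subunit that marks iron regulatory proteins for decay, was at 143, 292 and 183 CPM in stretched 1 to 3 and at 56.5, 57.6 and 77.8 CPM in static 1 to 3. Its log2 fold change was 1.69 ± 0.28 (adjusted p = 0.0194, edgeR), beside 0.05 for Ireb2 and -0.41 for Aco1 (adjusted p = 0.118), which encodes iron regulatory protein 1. Of 16 mitochondrial genes, 1 was called. Slc25a37, which encodes mitoferrin 1, the importer of iron into mitochondria, was at 385, 551 and 228 CPM in stretched 1 to 3 and at 82.8, 79.9 and 143 CPM in static 1 to 3. Its groups did not overlap, and the change was 1.93 ± 0.37 (adjusted p = 0.0246, edgeR; 0.0524 with the replicate block).

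**Figure D5:**
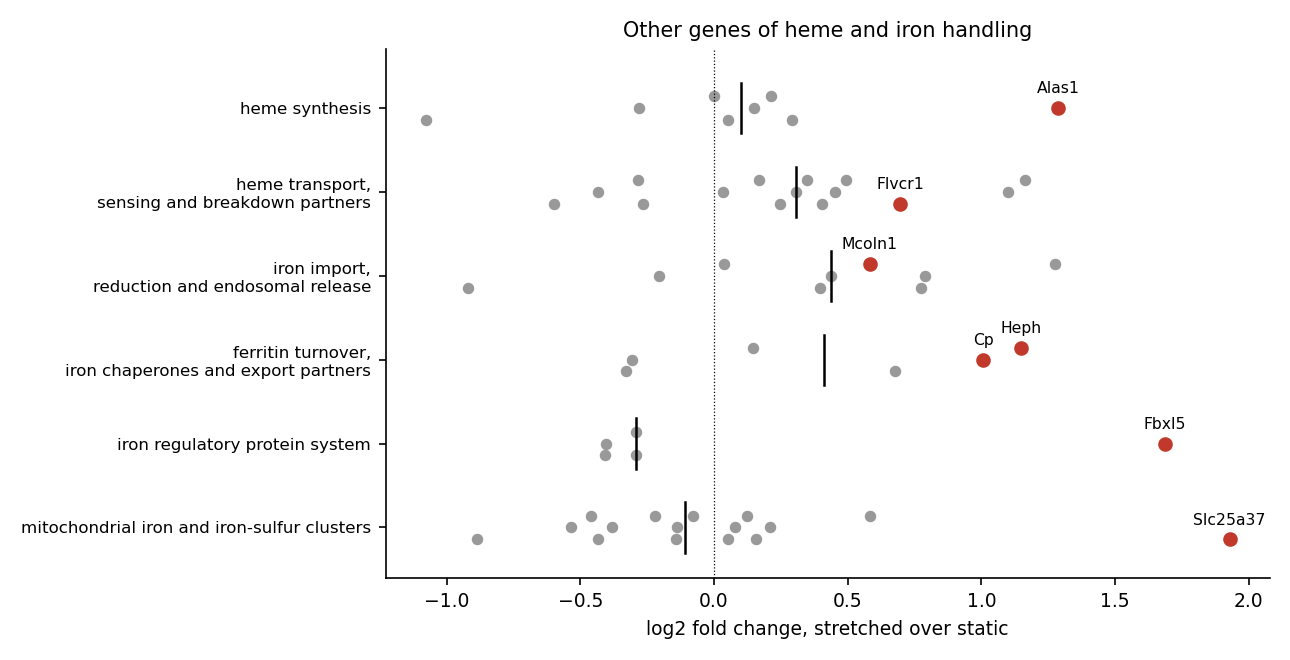
Log2 fold change of stretched over static (horizontal axis) for the 59 tested genes in 6 groups of heme and iron handling, with called genes in red and named, the others in grey and a black line at each group's median. The 7 called genes lie between 0.58 and 1.93, and none is called below 0.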

How the data were processed

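The 6 macrophage libraries were each prepared from 1.3 µg of RNA using SMARTER mRNA-Seq chemistry (per the labels' protocols). The deposited gene and transcript tables hold an estimated count per library, per the file headers. A second value per library has no stated unit and was taken for FPKM, computed by the authors: over 2811 genes above 20 in every library the length it implies had a median coefficient of variation of 0.367%. GRCm38 and mm10 are named in the submitters' processing notes. Aligner, counter and strandedness: not given in the sources used here, so overlapping antisense transcripts cannot be told apart.

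Estimated counts were rounded and tested with edgeR 4.0.16 (R 4.3.3; filterByExpr, minimum count 10; TMM; quasi-likelihood test; Benjamini-Hochberg over all tested genes, threshold 0.05). Standard errors derive from the F statistic. Alternatives were other scalings, DESeq2 1.42.0, limma 3.58.1 on log2 CPM (prior count 2), no filter, a replicate block and each library left out. The same tests ran on simulated data with 100 changes of 2-fold and 100 of 4-fold. edgeR recovered 50 and 90 of them with 8 false calls, and limma 49 and 90 with 8. DESeq2 recovered 69 and 94 with 38 false calls, so it was less strict than edgeR on these simulated data. edgeR with the replicate block recovered 29 and 87 with 8 false calls, on data simulated without pairs. The simulation drew counts with edgeR's dispersions and changed no other genes among its 12804. It held no library that stood apart as static 3 did. Its rates may therefore not hold for the calls on the real libraries. Deviations of same-numbered libraries from their group means correlated at 0.286, 0.183 and 0.182 for numbers 1, 2 and 3. Those of differently numbered libraries correlated at -0.24 to 0.109. This is a weak hint of pairing from the data, not the labels. The main fit did not pair the libraries, and the replicate block did. Of the gene identifiers, 16802 matched GRCm38.p6, the source of gene coordinates (1-based). The text names all members, the called genes of each pathway group and the 2 genes most like each member, of which 1 is not reported here. Other genes of the groups were named after their values were seen. Members and lists were chosen with earlier results of these data known.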

Additional observations from a re-analysis of the deposited data

How the results depend on the processing

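With library size alone, which moved the median log2 fold change of all genes from -0.002 to -0.19, 556 genes were called higher and 1297 lower, of the members 1 higher, and of the other pathway genes 3 lower; Lcn2 was at 1.18, Ireb2 at -0.15 and the less abundant main transcript of Slc11a1 at -0.030. DESeq2 called 1398 genes higher and 1284 lower, 5 members higher and 2 lower, 3 pathway genes lower and 5 member transcripts. It added Slc48a1 (0.87), Fth1 (1.02), Ftl1 (0.53) and Tfrc (-1.10). The replicate block gave 408 genes lower and 2 members lower, with Tfrc at -1.17. It ended the calls of Flvcr1, Mcoln1 and Slc25a37, added Slc22a17, and changed no other call among members and the other tested pathway genes.

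With 1 library left out (edgeR, and DESeq2 as chosen after seeing the data), the ranges were 0 to 2364 genes higher and 0 to 2137 lower, 0 to 5 members higher and 0 to 2 lower, 0 to 15 pathway genes higher and 0 to 8 lower, and 0 to 6 member transcripts. The log2 fold change ran from 1.98 to 2.73 for Hmox1, 0.61 to 1.08 for Slc48a1, 0.86 to 1.13 for Fth1, 0.44 to 0.60 for Ftl1, -0.93 to -0.68 for Slc40a1, -1.54 to -0.83 for Tfrc, 0.93 to 1.60 for Lcn2 and -0.052 to 0.14 for Ireb2. Ireb2 was at -0.047 and -0.052 without static 3 and stretched 2 in edgeR, and at -0.051 and -0.042 in DESeq2. The Slc11a1 transcript was at -0.042 in edgeR and -0.052 in DESeq2 without static 3, and up to 0.26 with another library left out. The log2 ratio of Tfrc to Slc40a1 differed by -0.68 to 0.028, the last without stretched 2. The causes were not tested. With 3 libraries a group, no ratio could reach an exact p under 0.1.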
